A study of Homo sapiens with 6 samples.

Results

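The basic helix-loop-helix (bHLH) transcription factors that pair with one another, and that ID proteins can hold away from DNA, were followed in breast cancer cells given activin B. The set was written as 46 gene symbols: 3 E proteins, the tissue-restricted factors of the neural, muscle, mesodermal, blood and germline lineages that pair with them, and the repressors of the HES, HEY and BHLHE40 families. Probe sets were taken by the gene symbol of the array's annotation, and where a gene had several, the brightest one represented it, judged by the mean of all 6 arrays whatever their treatment. Of the 46 genes, 45 had at least 1 matched probe set among the 19775 genes represented, with 93 probe sets in all. NEUROD1 had no matched probe set and was not analysed here. The ID genes themselves were not members.

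The cells were SUM-LM1, written SUM159-LM1 in the study, a lung metastatic derivative of the SUM159 breast cancer line that carries a reporter. In the activin B group, cells seeded at 12500 per ml on ultra-low attachment plastic, in HuMEC medium with BSA, received recombinant human activin B at 50 ng/ml for 6 h. The vehicle group was handled the same way and received BSA in PBS in place of activin B. Each group had 3 arrays (Affymetrix Human Genome U133 Plus 2.0), labelled as biological replicates, and the labels do not say whether they came from separate cultures, so the p values cover the spread between arrays, which may be technical.

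E proteins (TCF3, TCF4, TCF12) are bHLH factors made in most cells. They bind the E-box, CANNTG in DNA, as pairs with themselves or with a tissue-restricted bHLH factor such as MYOD1 in muscle, TAL1 in blood or the neurogenins in the nervous system. ID proteins have the helix-loop-helix that makes the pair but no basic region that touches DNA, so a pair that holds an ID protein does not bind. HES and HEY proteins are bHLH repressors best known as targets of Notch receptors. Activin B is a ligand of the TGF-β family that acts through receptor kinases and SMAD proteins.

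The arrays correlated with one another at 0.993 to 0.996 over 54613 probe sets. Activin B replicate 3 lay at 21.7 on the first principal component (29.5% of the variance), against -10.6 to 5.70 for the other 5 arrays. Without it, ATOH8, TCF4, TCF3, TCF21 and HEYL had the values given beside them. All 8 markers listed for a mesenchymal breast cancer line were above a dim-signal reference, the 95th percentile of 102 olfactory receptor genes (log2 signal 6.94). The epithelial adhesion genes CDH1 and EPCAM were under that reference, while 6 of 9 epithelial markers were above it. One of these, the basal keratin KRT15, fell to 7.89 ± 0.06 with activin B, against 8.95 ± 0.08 with vehicle (SD, n = 3 each), a log2 change of -1.05 that passed limma, and KRT5 had a change of -0.21 that did not. Another basal keratin, KRT14, changed by 0.08 without passing. Of the 9 epithelial markers, 6 had a positive change and 3 a negative one. The log2 of the summed epithelial markers was 13.08 to 13.15 in activin B arrays and 13.14 to 13.17 in vehicle arrays. Of the markers of tissues in which many of the bHLH factors act, 2 of 10 neural, 1 of 10 muscle, 0 of 6 measured blood and 1 of 8 endothelial genes were above the reference. The log2 of the summed blood markers was 9.13 to 9.26 in activin B arrays and 9.10 to 9.13 in vehicle arrays, and that of the endothelial markers was 9.58 to 9.65 in activin B arrays and 9.67 to 9.79 in vehicle arrays. The part of these marker shifts in the results was not tested.

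Of the 45 measured bHLH genes, ATOH8 and TCF4 were higher with activin B at an adjusted p under 0.05, and none was lower. The share of members higher was 4.44%, against 0.101% of all genes (20 of 19775), and the share lower was 0, against 0.091% of all genes (18). The members were chosen with earlier results of these data known, and those results named ATOH8 as called. The share higher is therefore a description and not a test. The TCF4 call was lost when any 1 of the 6 arrays was left out, which leaves ATOH8 as 1 member higher. Of the 2 genes called with all 6 arrays, TCF4 is an E protein, a general partner, and ATOH8 is an atonal-related, tissue-restricted factor. The other 43 genes did not pass the test. The 95% confidence intervals of their representing probe sets all lay between -0.45 and 0.40 on the log2 scale. A TCF3 probe set other than the representing one had an interval of 0.19 to 0.56. The median log2 change was 0.01 over the members and -0.00 over all genes, and the changes of single members ran between -0.25 and 0.58. The cells were measured in bulk, so more cells with a transcript and more transcript per cell cannot be told apart.

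Looser counts were less far from the background. With an unadjusted p under 0.05, 4 members were higher (8.89%, against 3.14% of all genes) and 3 were lower (6.67%, against 2.75% of all genes). The 3 activin B arrays and the 3 vehicle arrays did not overlap for 7 members (15.6%), 4 higher and 3 lower, against 10.3% of all genes. ATOH8 and TCF4 are among the 4 higher members in both counts. Of the 93 member probe sets, 4 passed the adjusted test, against 0.121% of all probe sets. They are 2 probe sets each of ATOH8 and TCF4, read on the same arrays, and add no further member. A single gene compared over 3 against 3 arrays by an exact permutation test cannot reach a two-sided p under 0.1, so the calls rest on limma, which borrows the spread of all probe sets.

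**Figure D1:**
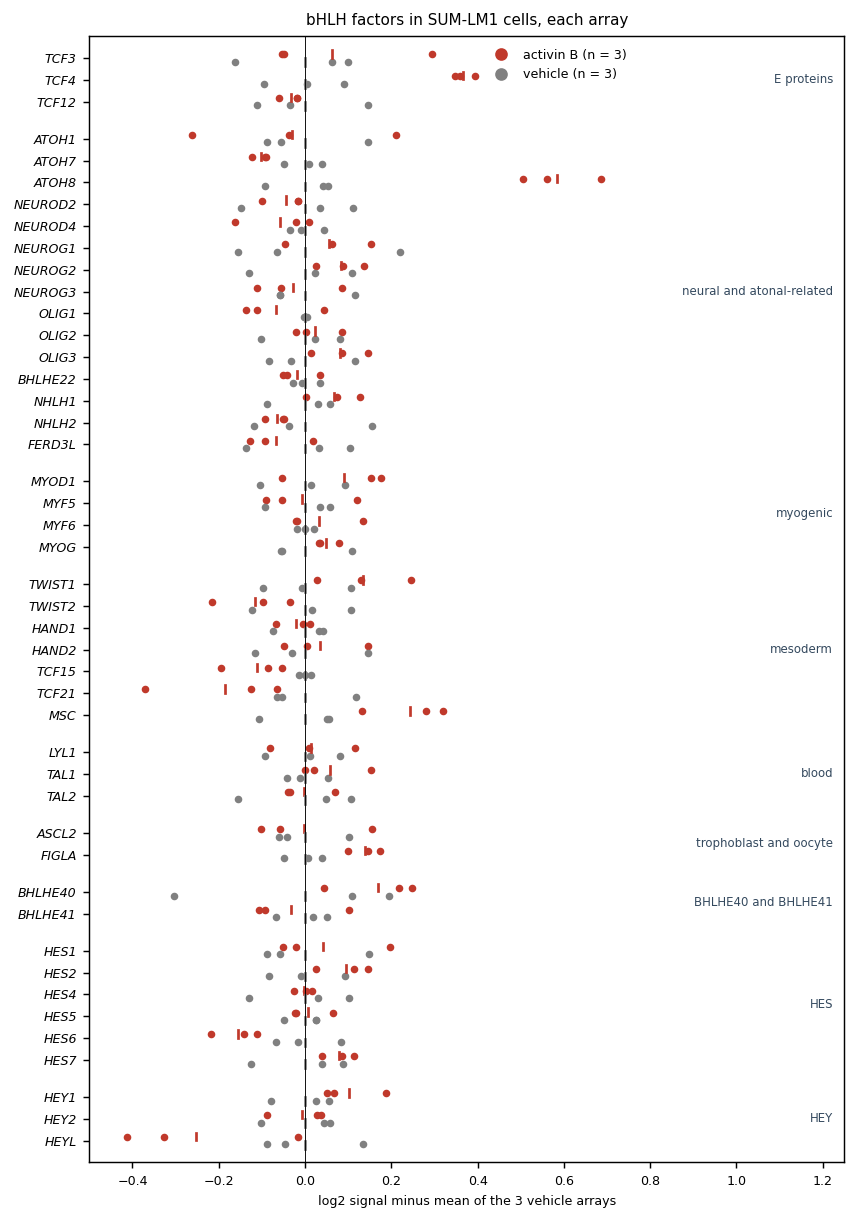
Log2 signal of the 45 measured bHLH genes by array, with the vehicle mean of each gene set to 0, activin B arrays in red and vehicle arrays in grey, a short bar at the activin B mean, and genes grouped by role. ATOH8 and TCF4 are the 2 genes whose activin B arrays all lie over 0.3 from the vehicle mean.

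ATOH8, a bHLH factor of the atonal group described in liver and endothelium, had the largest change among the members. Its log2 signal was 7.76, 7.63 and 7.58 in the activin B arrays, against 6.98, 7.11 and 7.13 in the vehicle arrays. Every activin B array was above every vehicle array, and the gap between the groups was wider than the spread within either. The means were 7.66 ± 0.09 with activin B and 7.07 ± 0.08 with vehicle (SD, n = 3 each), a log2 change of 0.58 ± 0.07 (SE, limma, adjusted p = 0.00142) or 1.5-fold. ATOH8 ranked 15th of 19775 genes by p value.

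The array carries 3 probe sets for ATOH8, and 2 of them passed the test. The second read 6.86, 6.95 and 6.85 in the activin B arrays, against 6.57, 6.39 and 6.37 in the vehicle arrays, again with no overlap. Its log2 change was 0.45 ± 0.07 (SE, limma, adjusted p = 0.0195), with a mean signal under the dim-signal reference. The remaining probe set was the brighter of these 2, with a mean signal of 6.89 against 6.66. It read 6.79, 7.13 and 6.86 in the activin B arrays, against 6.68, 6.98 and 6.93 in the vehicle arrays. Its groups overlapped, and its change of 0.07 ± 0.09 did not pass (adjusted p = 0.999). With any single array left out, the log2 change of the representing probe set was between 0.53 and 0.62 and still passed (0.62 without activin B replicate 3).

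The promoter of ATOH8 is shown because it is the member with the clearest rise and because it carries the element that E proteins and their partners bind. The window covers chr2:85753741-85754040, plus strand, 250 bases before to 50 after the annotated start (RefSeq, GRCh38.p14), with matches to the E-box CANNTG in capitals.
ATOH8: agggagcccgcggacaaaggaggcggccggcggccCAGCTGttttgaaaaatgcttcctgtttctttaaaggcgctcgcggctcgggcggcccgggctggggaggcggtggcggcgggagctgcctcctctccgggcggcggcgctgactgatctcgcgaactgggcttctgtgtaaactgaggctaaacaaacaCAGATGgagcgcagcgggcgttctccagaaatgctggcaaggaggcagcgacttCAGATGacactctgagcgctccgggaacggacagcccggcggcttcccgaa
The matches begin at -215, -55 and -1 from the first transcribed base. E-boxes were searched as CANNTG, which reads the same on both strands, and 68.9% of 27305 RefSeq promoters of this length hold at least 1. The window has no match to GGCGCC, a GC-rich element bound by SMAD proteins of the BMP branch, which 19.0% of all promoters hold, nor to the SMAD box CAGAC on either strand, which 45.0% hold. It also has no match to the N-box CACNAG, searched on both strands and held by 38.0% of all promoters. A match gives the letters only and no measured binding.

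Promoter windows were matched for 37 of the 46 members. An E-box was in 23 of them (62.2%), an N-box in 17 (45.9%), GGCGCC in 6 (16.2%) and CAGAC in 14 (37.8%). Of the forms of the E-box, CACGTG was in 3 (8.11%, against 7.43% of all promoters), CAGCTG in 4 (10.8%, against 17.7%) and CAGGTG in 6 (16.2%, against 20.6%).

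Among the E proteins, which are the partners shared by nearly all tissue-restricted members, TCF4 passed the test while TCF3 and TCF12 did not. Differences between these genes were not tested, and 1 TCF3 probe set other than the representing one changed by 0.38 without passing. TCF4, also named E2-2 and not to be taken for the Wnt effector TCF7L2, drives plasmacytoid dendritic cell identity in blood. Its log2 signal was 9.69, 9.74 and 9.70 in the activin B arrays, against 9.25, 9.43 and 9.35 in the vehicle arrays. The 3 activin B arrays lay within 0.05 of one another and above all vehicle arrays. The means were 9.71 ± 0.02 with activin B and 9.34 ± 0.09 with vehicle (SD, n = 3 each), a log2 change of 0.37 ± 0.07 (SE, limma, adjusted p = 0.0476) or 1.29-fold.

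TCF4 sat close to the threshold. The adjusted p was 0.100 without activin B replicate 1, 0.290 without activin B replicate 2 and 0.118 without activin B replicate 3. It was 0.278 without vehicle replicate 1, 0.101 without vehicle replicate 2 and 0.193 without vehicle replicate 3. The log2 change itself stayed between 0.32 and 0.41 in these fits. The direction was shared by all 8 TCF4 probe sets, which are parts of 1 gene and not independent of each other. A second one passed (9.34, 9.50 and 9.55 in the activin B arrays, against 9.01, 9.00 and 9.12 in the vehicle arrays, log2 change 0.42 ± 0.07, adjusted p = 0.0285). The other 6 changed by 0.03 to 0.31 without passing, 4 of the 8 had groups that did not overlap, and the mean over all 8 gave a change of 0.25 with an adjusted p of 0.271.

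TCF3, which encodes the E proteins E12 and E47, read 9.73, 9.73 and 10.08 in the activin B arrays, against 9.88, 9.62 and 9.85 in the vehicle arrays. Activin B replicate 3 was the highest and the other activin B arrays fell inside the vehicle range. The log2 change was 0.06 ± 0.09 (adjusted p = 0.999, 95% interval -0.14 to 0.26), and it was -0.05 without activin B replicate 3 and -0.02 without vehicle replicate 2. The representing probe set is of the type that may bind other transcripts, and the 14 probe sets for TCF3 did not move as one. The probe set with the largest change read 8.16, 8.48 and 8.44 in the activin B arrays, against 8.07, 8.01 and 7.86 in the vehicle arrays. These groups did not overlap, but the change of 0.38 ± 0.09 did not pass (adjusted p = 0.210), and the other 13 probe sets lay between -0.08 and 0.18.

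TCF12, which encodes the E protein HEB, read 8.98, 8.98 and 8.94 in the activin B arrays, against 9.15, 8.97 and 8.89 in the vehicle arrays. The activin B arrays fell within the vehicle range. The log2 change was -0.03 ± 0.07 (adjusted p = 0.999, 95% interval -0.19 to 0.12), 0.04 without vehicle replicate 1, and the other 3 probe sets lay between -0.09 and -0.01.

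**Figure D2:**
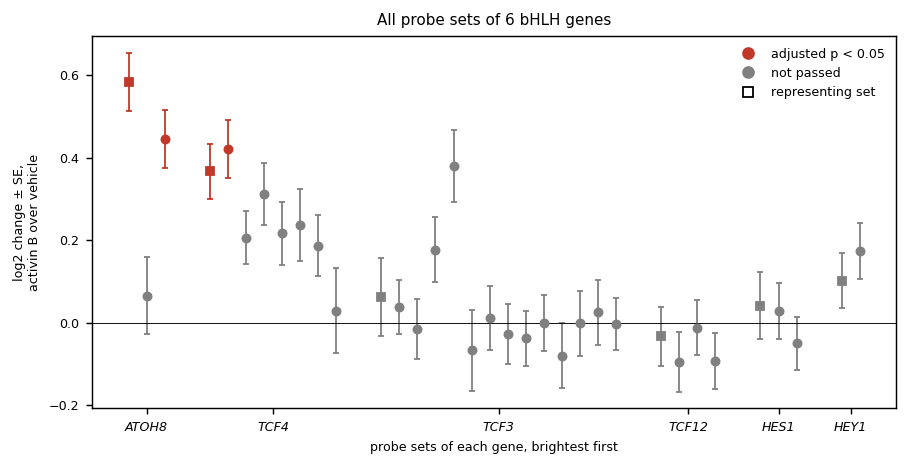
Log2 change with its standard error, activin B over vehicle, for every probe set of 6 bHLH genes, brightest first within each gene, with squares for the representing probe sets and red for an adjusted p under 0.05. The red points are 2 probe sets of ATOH8 and 2 of TCF4, and all 8 TCF4 probe sets lie above 0.

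The remaining neural and atonal-related members gave no second call. Of 16 listed, 15 were measured, ATOH8 alone passed, and the median log2 change of the group was -0.03. ATOH8 was also the only one of the 15 above the dim-signal reference. The 14 others had signals at the level of the olfactory receptor genes and log2 changes between -0.10 (ATOH7, a factor of retinal ganglion cells) and 0.08 (NEUROG2, a proneural factor). They include ATOH1, NEUROD2, NEUROD4, NEUROG1, NEUROG3, OLIG1, OLIG2, OLIG3, BHLHE22, NHLH1, NHLH2 and FERD3L. NEUROD2, a neuronal differentiation factor, read 6.72, 6.81 and 6.80 in the activin B arrays, against 6.86, 6.93 and 6.67 in the vehicle arrays, a change of -0.04 ± 0.07 with overlapping groups. RMA compresses changes at signals of this level.

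The 4 myogenic factors behaved in the same way. MYOD1, MYF5, MYF6 and MYOG, which specify and differentiate skeletal muscle, were all under the reference, with log2 changes between -0.01 and 0.09 and none called. MYOG, the brightest probe set of the group, read 6.92, 6.87 and 6.88 in the activin B arrays, against 6.95, 6.79 and 6.79 in the vehicle arrays (change 0.05 ± 0.07, adjusted p = 0.999). MYOD1 read 6.86, 6.89 and 6.66 in the activin B arrays, against 6.80, 6.61 and 6.72 in the vehicle arrays (change 0.09 ± 0.08, adjusted p = 0.995). The groups overlapped for both.

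Among the 7 mesodermal members, 3 were above the reference: TWIST1, TWIST2 and MSC. None passed the test. MSC (musculin), a repressor first described in B cells and in muscle precursors, came nearest. It read 8.50, 8.64 and 8.68 in the activin B arrays, against 8.26, 8.42 and 8.41 in the vehicle arrays. The groups did not overlap, with a log2 change of 0.24 ± 0.07, but the adjusted p was 0.564 (95% interval 0.09 to 0.40).

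TWIST2, known for its part in mesenchymal differentiation, read 10.13, 10.24 and 10.31 in the activin B arrays, against 10.22, 10.36 and 10.45 in the vehicle arrays. The ranges overlapped, and the log2 change was -0.12 ± 0.07 (adjusted p = 0.992, 95% interval -0.27 to 0.04). TWIST1, its close relative and a driver of epithelial to mesenchymal transition, read 7.70, 7.81 and 7.60 in the activin B arrays, against 7.67, 7.47 and 7.56 in the vehicle arrays (change 0.13 ± 0.07, adjusted p = 0.977). Here too the ranges overlapped.

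TCF21, a factor of kidney, lung and heart mesenchyme, had a probe set under the reference that read 6.53, 6.47 and 6.22 in the activin B arrays, against 6.71, 6.53 and 6.54 in the vehicle arrays. Its change of -0.19 ± 0.08 had an adjusted p of 0.934, with the highest activin B array level with the lowest vehicle array, and it was -0.09 without activin B replicate 3. HAND1 and HAND2, factors of the heart, changed by -0.02 and 0.03, and TCF15, a factor of the somites, by -0.11 with groups that did not overlap and an adjusted p of 0.984. All 3 were under the reference.

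The blood factors gave no call either. LYL1 and TAL1, partners of E proteins in hematopoietic stem cells, had signals just above the reference and TAL2 was under it. LYL1 read 6.96, 7.16 and 7.05 in the activin B arrays, against 7.06, 6.95 and 7.13 in the vehicle arrays (change 0.01 ± 0.07). TAL1 read 7.04, 7.17 and 7.02 in the activin B arrays, against 7.07, 6.97 and 7.01 in the vehicle arrays (change 0.06 ± 0.07). The groups overlapped for both, and TAL2 changed by -0.00. ASCL2, a factor of trophoblast and intestinal stem cells, read 6.64, 6.43 and 6.39 in the activin B arrays, against 6.43, 6.59 and 6.45 in the vehicle arrays (change -0.00 ± 0.08). FIGLA, a factor of the oocyte, read 6.24, 6.29 and 6.32 in the activin B arrays, against 6.18, 6.15 and 6.09 in the vehicle arrays. Its groups did not overlap, but the change of 0.14 ± 0.06 had an adjusted p of 0.934 at a signal under the reference.

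Of all 45 measured genes, 15 (33.3%) had a signal above the dim-signal reference, against 53.6% of all genes. Both called genes were among these 15. Of the 30 members at or under it, 0 were called by limma, against 0.101% of all genes called higher and 0.091% called lower. At an unadjusted p under 0.05, 1 of the 30 was higher and 2 were lower, against 3.14% and 2.75% of all genes. The count above the reference was 21 with the 90th percentile of the olfactory receptor genes and 13 with the median of all genes (log2 signal 7.11).

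**Figure D3:**
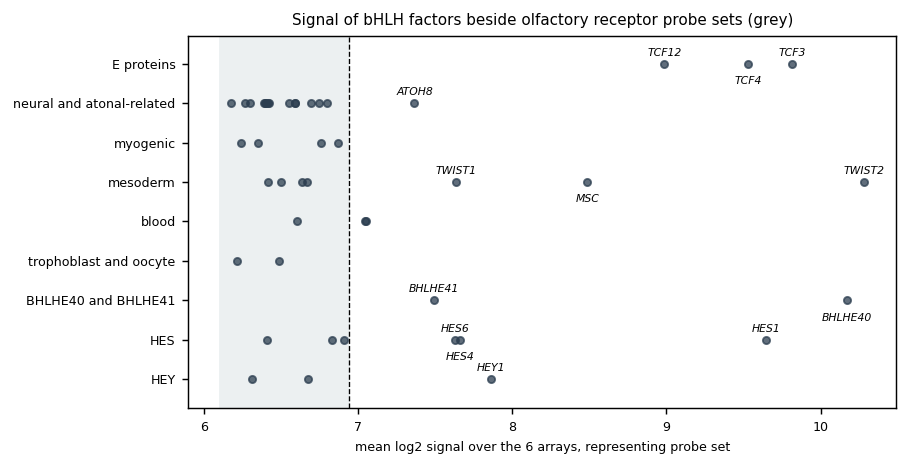
Mean log2 signal over the 6 arrays of the representing probe set of each bHLH gene, in rows by role, beside the grey band from the lowest to the 95th percentile of 102 olfactory receptor genes (dashed line at 6.94). The 15 genes to the right of the line include all 3 E proteins, both BHLHE40 relatives and 1 of 15 neural and atonal-related genes.

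The repressors, which do not need an E protein, were measured in 3 families. BHLHE40 and BHLHE41 (DEC1 and DEC2), which act in the circadian clock and the response to low oxygen, were both above the reference and neither passed. BHLHE40 read 10.13, 10.33 and 10.30 in the activin B arrays, against 9.78, 10.28 and 10.20 in the vehicle arrays. Vehicle replicate 1 stood below the other 5 arrays, which overlapped, and the change was 0.17 ± 0.10 (adjusted p = 0.989, 95% interval -0.05 to 0.39). BHLHE41 read 7.61, 7.41 and 7.40 in the activin B arrays, against 7.44, 7.56 and 7.52 in the vehicle arrays, a change of -0.03 ± 0.07 with overlap.

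HES1, the member of its family best known as a direct Notch target, read 9.82, 9.60 and 9.57 in the activin B arrays, against 9.56, 9.77 and 9.54 in the vehicle arrays. Each group had 1 array above its other arrays, and the ranges overlapped. The log2 change was 0.04 ± 0.08 (adjusted p = 0.999, 95% interval -0.13 to 0.22), and the other 2 probe sets changed by 0.03 and -0.05. The HES1 protein is known to repress its own gene through N-boxes, so its promoter is printed beside that of ATOH8. The window is chr3:194135898-194136197, plus strand (RefSeq, GRCh38.p14), with matches to CACNAG on either strand in capitals.
HES1: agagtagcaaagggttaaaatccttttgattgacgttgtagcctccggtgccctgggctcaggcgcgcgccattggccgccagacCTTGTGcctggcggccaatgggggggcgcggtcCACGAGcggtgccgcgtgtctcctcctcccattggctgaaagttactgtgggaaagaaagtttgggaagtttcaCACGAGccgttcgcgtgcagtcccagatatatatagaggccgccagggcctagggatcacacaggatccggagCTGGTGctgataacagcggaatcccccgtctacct
The matches begin at -165, -132, -58 and 15 from the first transcribed base, and the window holds no E-box. The promoter of ATOH8 had 3 E-boxes and no N-box. Of all promoters, 68.9% hold an E-box and 38.0% an N-box. A link between these matches and the changes of the genes was not tested.

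HES6, a family member that counters HES1 in neural and muscle precursors, had the one HES probe set whose groups did not overlap. It read 7.60, 7.57 and 7.49 in the activin B arrays, against 7.69, 7.64 and 7.79 in the vehicle arrays, so that every activin B array was under every vehicle array. The change of -0.16 ± 0.07 did not pass (adjusted p = 0.914, 95% interval -0.30 to -0.02). HES4 read 7.64, 7.68 and 7.66 in the activin B arrays, against 7.53, 7.76 and 7.69 in the vehicle arrays, a change of -0.00 ± 0.07. HES2, HES5 and HES7 were under the reference and changed by 0.09, 0.01 and 0.08.

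In the HEY family, whose members act with Notch in heart and vessels, only HEY1 was above the reference. It read 8.00, 7.86 and 7.88 in the activin B arrays, against 7.84, 7.73 and 7.87 in the vehicle arrays (change 0.10 ± 0.07, adjusted p = 0.995). The second HEY1 probe set read 7.70, 7.51 and 7.59 in the activin B arrays, against 7.38, 7.40 and 7.49 in the vehicle arrays. The groups overlapped in the first and not in the second, whose change of 0.17 ± 0.07 had an adjusted p of 0.880. HEYL, at a signal under the reference, read 6.47, 6.78 and 6.39 in the activin B arrays, against 6.93, 6.75 and 6.71 in the vehicle arrays. It had the lowest change of all members, -0.25 ± 0.09 (adjusted p = 0.850), with overlapping groups. It was -0.17 without activin B replicate 3, and the other HEYL probe set gave 0.07. HEY2 changed by -0.01.

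The genes with which these factors work were read from lists in the same fit. ID1, ID2 and ID3 rose by log2 changes of 2.25, 1.47 and 2.85, and ID4, at a dim signal, changed by -0.11 without passing. Of 25 genes that feed Notch signals to HES and HEY, 24 were measured and 0 passed limma, with a median log2 change of -0.01. At an unadjusted p under 0.05, 1 of them was lower, against 2.75% of all genes. The nearest was DLL1, a Notch ligand, which read 8.59, 8.63 and 8.68 in the activin B arrays, against 8.91, 8.96 and 9.06 in the vehicle arrays. All activin B arrays were under all vehicle arrays, and the change was -0.34 ± 0.07 (adjusted p = 0.0698). The next was NOTCH1, at -0.16 ± 0.08 (adjusted p = 0.959).

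Genes that HES and HEY recruit or that bind E proteins gave no call. All 6 TLE corepressors and all 9 coregulators of E proteins were measured and 0 passed limma. At an unadjusted p under 0.05 there were also 0, against 3.14% of all genes higher and 2.75% lower. The median log2 changes of these lists were 0.05 and 0.01. The lowest adjusted p in both lists was 0.959. Among the coregulators, LMO2, which bridges TAL1 and its partners in blood, changed by 0.12 and RUNX1T1, a corepressor, by -0.13. Among the TLE genes, TLE6 changed by 0.15 and TLE4 by 0.11.

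**Figure D4:**
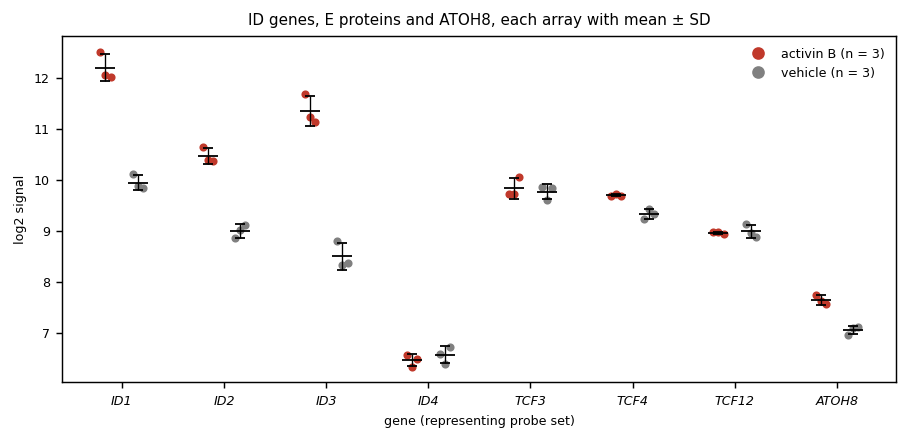
Log2 signal on each array, with mean ± SD, of the ID genes, the 3 E proteins and ATOH8, activin B arrays in red to the left of vehicle arrays in grey. ID1, ID2, ID3, TCF4 and ATOH8 separate by treatment, ID4, TCF3 and TCF12 overlap, and levels of different genes cannot be compared since their probes differ.

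The rest of the bHLH superfamily, including the leucine zipper and PAS branches that as a rule do not pair with ID proteins, had 0 calls by limma. It comprised 21 of 22 leucine zipper genes, 18 of 19 PAS genes and 9 of 18 further class I, class II and hairy-related genes with a probe set, with median log2 changes of 0.03, 0.03 and -0.02. The activin B and vehicle arrays did not overlap for 5 of the 21 leucine zipper genes, all of them higher. Over all 19775 genes, 1016 were higher without overlap. The groups did not overlap for 1 of the 18 PAS genes and 0 of the 9 further genes, against 10.3% of all genes in either direction. At an unadjusted p under 0.05, 1 leucine zipper gene was higher and 0 PAS or further bHLH genes were higher or lower. Of all genes, 3.14% were higher and 2.75% lower at that threshold. The leucine zipper gene was TFEB, a regulator of lysosome genes, at 0.16 ± 0.07 (adjusted p = 0.930), and MNT, a MAX partner, followed at 0.18 ± 0.09 (adjusted p = 0.952). In the PAS list the smallest p values were those of ARNT2, a partner of other PAS factors (-0.13), and SIM2 (0.12). In the further bHLH list they were those of TCF24 (-0.04) and ASCL5 (0.03).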

How the data were processed

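Gene expression in SUM-LM1 cells was measured on 6 Affymetrix arrays, 3 per group, with groups and replicate numbers taken from the sample titles. The authors normalized the raw files by robust multiarray averaging (RMA) in Chipster, and the deposited values are log2 signals per probe set. RMA equalizes the arrays, so a change shared by most transcripts is removed, and it compresses changes of dim genes. Array signals have no read depth, and the number of arrays limits the precision. Neither the raw files nor scan dates were used here, and background correction and scan batch were not tested.

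Leaving out 62 array controls gave 54613 probe sets, of which 41091 carried 1 gene symbol in the platform annotation, 1801 several and 11721 none; genes were named only from the first class. Gene identifiers of 41037 matched the RefSeq table (GRCh38.p14), and 0 symbols changed. The groups were tested per probe set with limma 3.58.1 under R 4.3.3 (lmFit, eBayes, 4 residual and 10.8 prior degrees of freedom). Benjamini-Hochberg adjustment ran over all 54613, with a call at an adjusted p under 0.05. The script was tested on simulated data. Errors of log2 changes are standard errors and intervals are 95% confidence intervals of this model.

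The members, lists and tests were chosen with earlier results of these data known. Full values are given for members called in any probe set, those with an unadjusted p under 0.05, the E proteins, and the 2 members of each role with the highest mean signal; from each list the called genes and the 2 with the smallest p are named. DLL1, NOTCH1 and the other list genes follow that rule. TWIST1, HEY1's second probe set, ATOH7, NEUROG2 and TCF15 were singled out after their values were seen, as were the markers KRT15, KRT5 and KRT14. Cell type markers for the mesenchymal line were VIM, CD44, ZEB1, CDH2, FN1, SPARC, AXL and CAV1. The log2 of the summed fibroblast markers, of which 4 of 8 were above the reference, was 11.42 to 11.47 in activin B arrays and 11.44 to 11.46 in vehicle arrays. Alternatives varied the normalization, filters on dim probe sets, moderation, array weights, the replicate block, the probe set per gene and the arrays included. Promoter windows came from RefSeq and plots were drawn with matplotlib 3.10.9.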

Additional observations from a re-analysis of the deposited data

How the results depend on the processing

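The rise of ATOH8 passed in all 17 alternatives that could give it a value (adjusted p 0.000633 to 0.0271, log2 change 0.36 to 0.62); a filter at a mean log2 signal of 7.5 removes the gene. TCF4 passed in 9 of 18. The count of members higher was 0 with the 7.5 filter, which leaves 11 members and puts TCF4 at an adjusted p of 0.0506, 1 with a filter at the median signal (TCF4 0.0660), and 1 with the mean of all probe sets of a gene (TCF4 0.271). Leaving out single arrays gave counts of 1 to 1, with TCF4 between 0.100 and 0.290. The change of TCF3 was -0.052 without activin B replicate 3 and -0.018 without vehicle replicate 2, between -0.052 and 0.12 over the arrays left out, and 0.38 when its representing probe set was one without a cross-hybridization suffix. That of TCF12 was 0.041 without vehicle replicate 1, between -0.089 and 0.041 over the arrays left out. The cause of these changes was not tested. No alternative called a member lower, and the median change of the members ran between -0.01 and 0.06. Same-numbered arrays correlated in their deviations at 0.16, 0.04 and 0.19, and all 6 arrays correlated best with their own number, a hint from the data and not the design. Deviations were taken from the mean of each group, so these 6 matches depend on one another. Whether the numbers pair the arrays was not tested. With the replicate block the count of members higher was 2 and TCF4 had an adjusted p of 0.0299. For the 30 dim members, precision near background limits what could be seen.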
